A study of Homo sapiens with 56 samples.

Results

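Polyamine metabolism was followed through 10 genes in 2 human acute myeloid leukaemia lines exposed to inhibitors of RNA polymerase I. The genes were SAT1, SMOX and PAOX of polyamine breakdown, ODC1, AMD1, SRM and SMS of synthesis, and OAZ1, OAZ2 and AZIN1 of the control of ornithine decarboxylase. They were chosen by name from the pathway, with the compound effects in these libraries already known, so their values against vehicle are a description and carry no test. All 10 were among the 59409 gene symbols measured in Mv4;11 and the 59081 measured in KG-1, and all 10 passed the filter on low counts, which left 20495 genes in Mv4;11 and 18618 in KG-1.

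Polyamines (putrescine, spermidine and spermine) are small cations that bind RNA and ribosomes, and growing cells make them from ornithine and from decarboxylated S-adenosylmethionine. Ornithine decarboxylase (ODC1) and S-adenosylmethionine decarboxylase (AMD1) are the regulated entry steps, and spermidine synthase (SRM) and spermine synthase (SMS) extend the chain. Spermidine/spermine N1-acetyltransferase (SAT1) tags polyamines with acetyl groups for export or oxidation, and antizymes carry ODC1 protein to the proteasome when polyamines are plentiful. ODC1 is a textbook target gene of the transcription factor MYC, and high polyamine synthesis is a known feature of proliferating leukaemia cells.

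Mv4;11 and KG-1 cells received 1 µM PMR-116 or 1 µM CX-5461, or a citric acid and NaH2PO4 buffer as vehicle, for 3 h or 12 h. PMR-116 and CX-5461 are small molecules that block synthesis of ribosomal RNA by RNA polymerase I. At each time, separate vehicle libraries accompanied each compound. There were 56 RNA libraries, 3 in each of 8 Mv4;11 groups and 4 in each of 8 KG-1 groups. The labels give Mv4;11 as batch 1 and KG-1 as batch 2 and each line has its own count table, so line, batch and table cannot be told apart and the lines are set side by side with no test between them. Nothing in the labels says that replicates were separate cultures, so the errors and p-values measure the spread between these libraries.

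Levels are counts-per-million (CPM) values on the scaled library size, and they compare a gene with itself between groups, not 1 gene with another. Library totals were 28751951 to 41542587 counts in Mv4;11 and 31010467 to 72707768 in KG-1. Of 9 leukaemia and myeloid markers, 8 had a median of at least 1 CPM in Mv4;11, where CD34 was near 0, and 9 did in KG-1. The summed level of 12 markers of other cell types was 2.82 to 6.10 CPM in Mv4;11 and 5.30 to 8.06 CPM in KG-1. In Mv4;11, replicate 3 of the 12 h PMR-116 vehicle stood apart, with 1126 CPM of the nuclear noncoding RNA MALAT1 against 63.3 and 59.4 CPM in replicates 1 and 2 of its group. Where leaving it out changed a call or moved ODC1, the value is given beside the result.

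The regions just upstream of 3 genes on which the results turn, the acetyltransferase SAT1, the decarboxylase ODC1 and the synthase SRM, are printed as the 250 bases before the RefSeq transcript start (GRCh38.p14), 5′ to 3′ on the strand of the gene. Of the 10 genes, 7 had an entry in the RefSeq promoter table. SAT1 lies on the plus strand (chrX:23782923-23783172), ODC1 on the minus strand (chr2:10448328-10448577) and SRM on the minus strand (chr1:11060019-11060268). Capitals mark the E-box CACGTG, the motif that MYC and related factors bind, searched on both strands, where it reads the same.
SAT1: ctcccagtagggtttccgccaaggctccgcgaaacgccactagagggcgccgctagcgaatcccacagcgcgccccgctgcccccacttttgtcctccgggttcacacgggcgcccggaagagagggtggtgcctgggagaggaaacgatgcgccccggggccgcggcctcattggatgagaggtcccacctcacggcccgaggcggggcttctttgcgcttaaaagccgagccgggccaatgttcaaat
ODC1: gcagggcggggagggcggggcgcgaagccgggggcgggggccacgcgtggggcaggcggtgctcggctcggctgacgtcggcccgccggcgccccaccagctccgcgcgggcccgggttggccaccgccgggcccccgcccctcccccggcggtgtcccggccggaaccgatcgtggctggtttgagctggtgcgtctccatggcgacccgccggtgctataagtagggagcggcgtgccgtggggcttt
SRM: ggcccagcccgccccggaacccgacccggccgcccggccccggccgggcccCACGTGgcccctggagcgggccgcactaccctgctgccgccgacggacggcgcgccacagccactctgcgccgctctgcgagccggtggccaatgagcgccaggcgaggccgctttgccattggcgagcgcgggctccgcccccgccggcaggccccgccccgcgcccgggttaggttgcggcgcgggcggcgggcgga
The E-box occurred in the SRM window, 199 bases before the start, and in neither the SAT1 nor this ODC1 window. A second RefSeq start of ODC1 lies downstream of the first, and its window held 1 E-box, 29 bases before that start (chr2:10448024-10448053, minus strand), printed with its neighbouring bases.
ODC1 second start: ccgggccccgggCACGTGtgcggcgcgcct
No window of AMD1, SMS, OAZ1 or OAZ2 held an E-box. Of 35116 human promoter windows of the same length, 6.34% held CACGTG. The antioxidant response element core TGACNNNGC was in 10.9% of the windows and the decamer that p53 binds in 5.57%. Neither was in any window of the 7 genes, on either strand. The windows were rich in G and C, at 66.4% for SAT1, 78.8% for ODC1 and 82.0% for SRM, where the median window had 58.0%. A match or its lack says which letters stand in these windows and nothing of which factor was bound.

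SAT1 transcripts were more abundant with either compound, in both lines and at both times. In Mv4;11, SAT1 had 30.3, 31.1 and 28.8 CPM with PMR-116 at 3 h, against 18.7, 11.5 and 11.9 CPM with its vehicle. CX-5461 libraries had 24.7, 18.7 and 21 CPM at 3 h, against 15, 13.6 and 14.5 CPM with its vehicle. At 12 h the PMR-116 libraries reached 46, 52.2 and 44.6 CPM, against 11.5, 13.1 and 11.5 CPM with vehicle. Every compound library lay above every vehicle library of its own comparison, although replicate 1 of the 3 h PMR-116 vehicle was higher than its group, and the PMR-116 libraries at 12 h were the highest of the line. CX-5461 at 12 h gave 29.5, 35.4 and 32.3 CPM, against 11.8, 13.5 and 13.1 CPM with vehicle. These are log2 fold changes of 1.10 ± 0.13 (± SE here and below), 0.58 ± 0.14, 1.99 ± 0.14 and 1.34 ± 0.14 in that order, or 2.14-fold, 1.49-fold, 3.97-fold and 2.53-fold. In bulk RNA, more transcript per cell and a larger share of cells with the transcript cannot be told apart. SAT1 counts were 347 to 1886 per library in Mv4;11 and 679 to 2624 in KG-1.

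**Figure D1:**
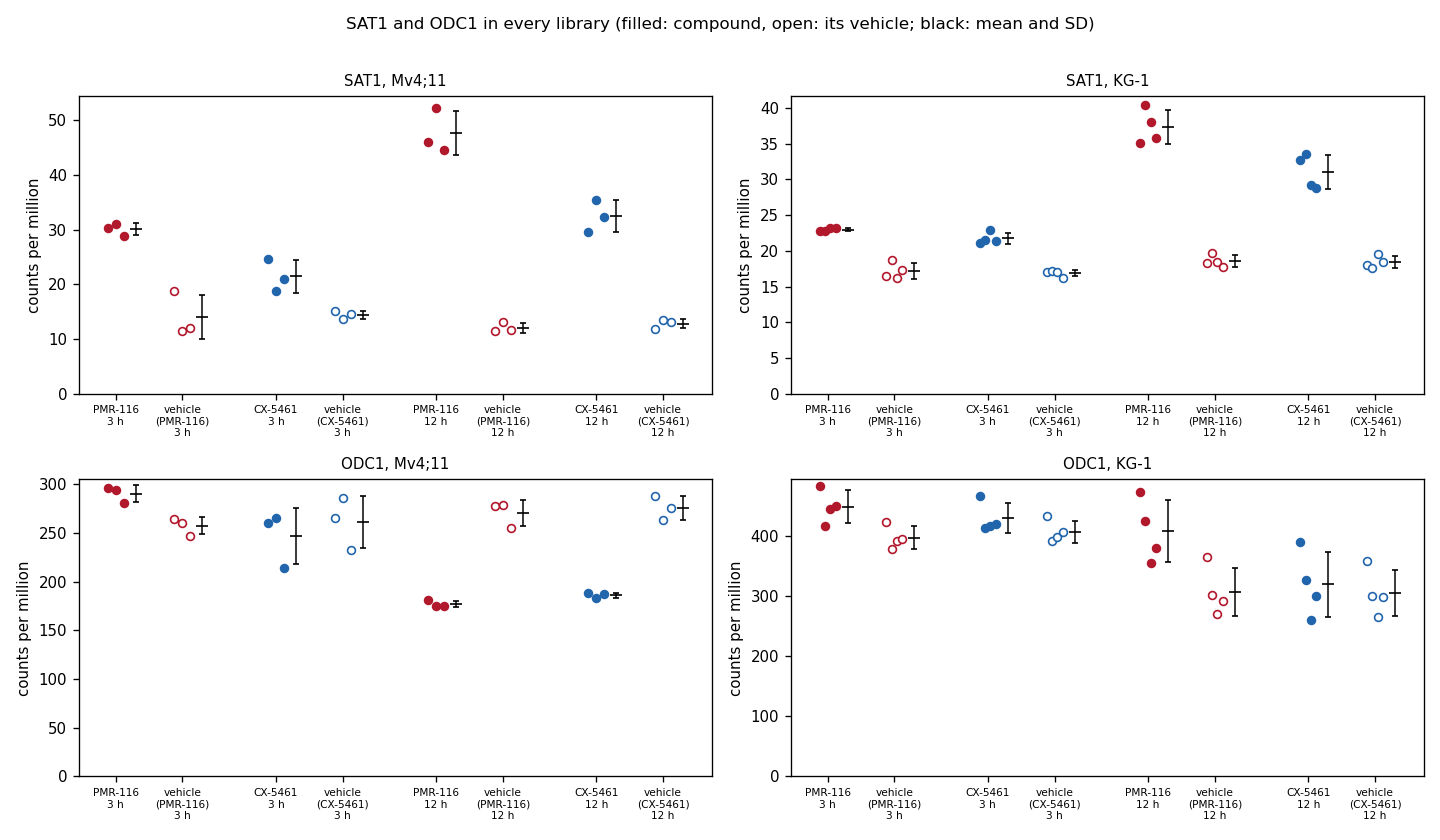
SAT1 (top) and ODC1 (bottom) in CPM in each library of Mv4;11 (left) and KG-1 (right), with compound groups filled, their vehicle groups open, and the group mean with SD in black. SAT1 compound libraries lie above their vehicle libraries in all 8 comparisons, whereas for ODC1 all compound libraries lie below all their vehicle libraries only in Mv4;11 at 12 h.

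In KG-1 the differences were smaller. SAT1 had 22.8, 22.8, 23.2 and 23.2 CPM with PMR-116 at 3 h, against 16.5, 18.7, 16.2 and 17.4 CPM with its vehicle. With CX-5461 at 3 h it had 21.2, 21.5, 22.9 and 21.4 CPM, against 17, 17.2, 17.1 and 16.2 CPM with vehicle. The groups did not overlap, and the log2 fold changes were 0.42 ± 0.06 with PMR-116 and 0.36 ± 0.06 with CX-5461. At 12 h, PMR-116 libraries had 35.2, 40.4, 38.1 and 35.8 CPM, against 18.4, 19.7, 18.4 and 17.7 CPM with vehicle. CX-5461 libraries had 32.7, 33.6, 29.3 and 28.8 CPM, against 18, 17.6, 19.6 and 18.5 CPM. The change was 2.02-fold with PMR-116 and 1.69-fold with CX-5461, and same-numbered replicates differed by 1.91-fold to 2.07-fold and by 1.5-fold to 1.90-fold.

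Ordered by mean level, both lines had PMR-116 at 12 h first and CX-5461 at 12 h second, then PMR-116 at 3 h, CX-5461 at 3 h and the 4 vehicle groups. In Mv4;11 the means of the compound groups were 47.6 ± 4.05, 32.4 ± 2.95, 30.1 ± 1.14 and 21.5 ± 3.01 CPM (SD, n = 3 each), and the vehicle means ran from 12.0 to 14.4 CPM. CX-5461 at 12 h and PMR-116 at 3 h overlapped there. In KG-1 the compound means were 37.4 ± 2.40, 31.1 ± 2.40, 23 ± 0.224 and 21.7 ± 0.782 CPM (SD, n = 4 each), the vehicle means ran from 16.9 to 18.5 CPM, and both compounds at 3 h overlapped.

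ODC1, the first enzyme of the pathway, was lower with either compound at 12 h in Mv4;11, and was not called lower at 3 h or in KG-1. In Mv4;11 it had 181, 175 and 175 CPM with PMR-116 at 12 h, against 277, 279 and 255 CPM with its vehicle. With CX-5461 at 12 h it had 188, 183 and 187 CPM, against 288, 263 and 276 CPM. Neither pair of groups overlapped, and ODC1 stood at 0.66 times (-0.61 ± 0.07) and 0.68 times (-0.57 ± 0.07) its vehicle level. Without vehicle replicate 3, the PMR-116 value was -0.67. At 3 h, PMR-116 libraries had 297, 294 and 281 CPM, against 264, 261 and 247 CPM, a log2 change of 0.17 ± 0.07 that did not pass the call threshold. CX-5461 libraries had 261, 266 and 214 CPM, against 265, 286 and 233 CPM (-0.08 ± 0.07), and those groups overlapped. The 3 h PMR-116 value passed with the replicate number as a block, with library totals in place of scaled ones, and with no filter on low counts. Counts of ODC1-DT, a divergent noncoding gene beside ODC1, were at most 2.86% of those of ODC1 in any library.

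In KG-1, ODC1 with PMR-116 at 12 h was higher than vehicle, not lower. It had 473, 425, 356 and 379.8 CPM, against 364, 302, 271 and 292 CPM with vehicle (0.41 ± 0.10). The groups overlapped. Replicate 1 was the highest library in 8 of 8 KG-1 groups, and each of 4 same-numbered pairs was higher, by 1.30-fold to 1.41-fold. The vehicle level of ODC1 was itself lower at 12 h than at 3 h. The PMR-116 libraries at 12 h spanned 356 to 473 CPM, beside 378 to 432 CPM in the 3 h vehicle libraries. With CX-5461 at 12 h ODC1 had 389, 327, 260.4 and 301 CPM, against 358, 301, 265 and 298 CPM (0.06 ± 0.10), and 3 of 4 pairs were higher. At 3 h, PMR-116 gave 483, 417, 445 and 450.2 CPM, against 423, 378, 391 and 395 CPM (0.18 ± 0.10). Each of 4 same-numbered pairs was higher there, by 1.10-fold to 1.14-fold. The value of 0.18 passed with the replicate number as a block, which follows the pairing of KG-1 libraries, and in no other fit. CX-5461 at 3 h gave 467, 413, 417 and 420.0 CPM, against 432, 391, 398 and 407 CPM (0.08 ± 0.10). With it, 4 of 4 pairs were higher, by 1.03-fold to 1.08-fold. The errors given are those of the fit without the block.

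MYC, the transcription factor named above, was set beside ODC1. In Mv4;11 it had 145, 106 and 108 CPM with PMR-116 at 3 h, against 493, 478 and 492 CPM with vehicle. At 3 h its log2 fold changes were -2.03 ± 0.09 with PMR-116 and -1.52 ± 0.09 with CX-5461, and -1.16 ± 0.09 and -0.56 ± 0.09 at 12 h. MYC was thus furthest below vehicle at 3 h, when ODC1 was at 0.17 and -0.08, and nearer to vehicle at 12 h, when ODC1 was at -0.61 and -0.57. In KG-1 the MYC values were -0.30 ± 0.09 and -0.08 ± 0.09 at 3 h and -0.16 ± 0.09 and -0.10 ± 0.09 at 12 h. Whether the ODC1 level depended on that of MYC, at once or later, was not tested.

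The ratio of SAT1 to ODC1 counts within a library joins the acetylating and the putrescine-forming enzyme, and the scaling of libraries cancels in it. In Mv4;11 at 12 h there were 25.4, 29.8 and 25.5 SAT1 counts per 100 ODC1 counts with PMR-116, against 4.13, 4.69 and 4.53 with vehicle. With CX-5461 there were 15.7, 19.4 and 17.3, against 4.10, 5.14 and 4.75. At 3 h there were 10.2, 10.6 and 10.3 with PMR-116, against 7.08, 4.40 and 4.82, and 9.47, 7.04 and 9.83 with CX-5461, against 5.67, 4.74 and 6.21. The groups were apart in each case. The ratio was 6.04-fold and 3.74-fold its vehicle value at 12 h with PMR-116 and CX-5461, and 1.95-fold and 1.58-fold at 3 h. In KG-1 at 12 h it was 7.43, 9.50, 10.7 and 9.42 with PMR-116, against 5.04, 6.53, 6.80 and 6.05, and 8.40, 10.3, 11.2 and 9.57 with CX-5461, against 5.04, 5.86, 7.37 and 6.20. The groups were apart there too, at 1.51-fold and 1.62-fold, beside 1.18-fold and 1.22-fold at 3 h. At 3 h the PMR-116 libraries of KG-1 (4.72 to 5.47) overlapped their vehicle libraries (3.89 to 4.94). The mean vehicle ratio of KG-1 was itself higher at 12 h than at 3 h. It was 6.11 against 4.35 in the vehicle for PMR-116 and 6.12 against 4.16 in the vehicle for CX-5461.

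**Figure D2:**
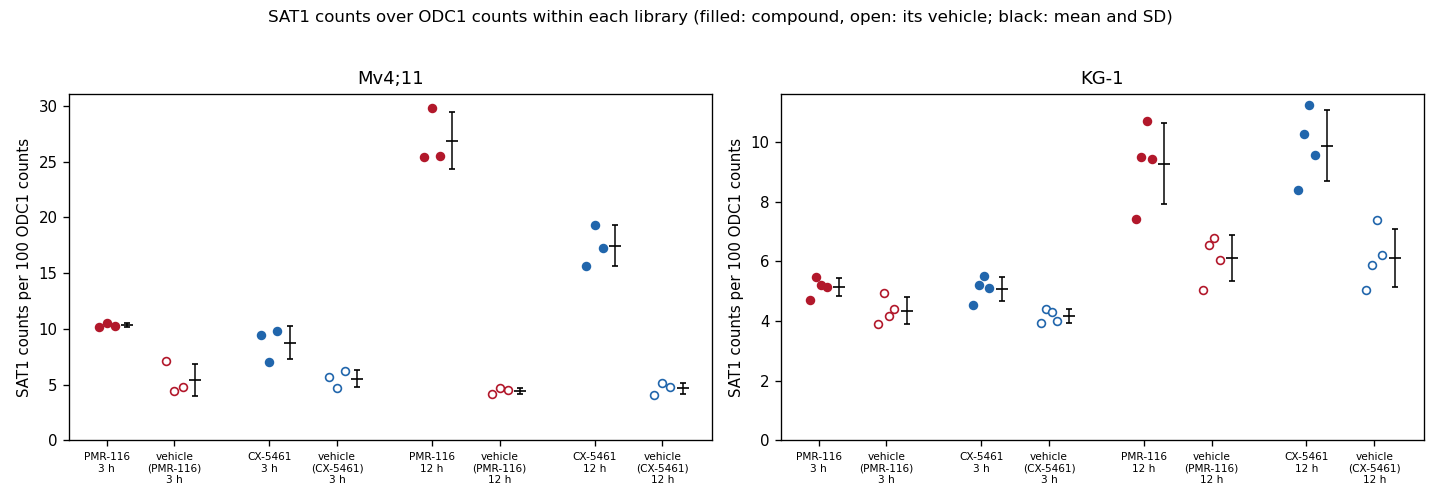
SAT1 counts per 100 ODC1 counts in each library of Mv4;11 (left) and KG-1 (right), with compound groups filled, vehicle groups open, and the group mean with SD in black. The Mv4;11 PMR-116 libraries at 12 h sit between 25.4 and 29.8, all above every other library.

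The number of the 10 genes called by edgeR's quasi-likelihood test (adjusted p under 0.05 over all genes of a line) is given beside the share of all genes called. In Mv4;11, 1 gene was called higher and 3 lower with PMR-116 at 3 h, where 11.0% of all genes tested were called higher and 13.1% lower. With CX-5461 at 3 h it was 1 higher and 2 lower, beside 5.05% and 6.61% of all genes. At 12 h, 2 were higher and 6 lower with PMR-116, beside 20.7% and 22.5% of all genes, and 2 higher and 6 lower with CX-5461, beside 14.8% and 16.5%. In KG-1, 1 was higher and 0 lower with PMR-116 at 3 h (3.61% and 3.71% of all genes) and with CX-5461 at 3 h (1.85% and 1.58%). At 12 h in KG-1, 2 were higher and 1 lower with PMR-116 (4.73% and 4.74%), and 1 higher and 1 lower with CX-5461 (1.36% and 1.18%). Since the genes were selected on these contrasts, nothing is read from the counts. In KG-1 the replicate number as a block made them 2 and 0, 1 and 0, 2 and 4, and 1 and 3, in the same order. Over all 18618 genes that fit called 1370 higher and 1229 lower, 1033 and 700, 1649 and 1549, and 757 and 556. The median log2 fold change of the 10 genes at 12 h in Mv4;11 was -0.48 with PMR-116 and -0.43 with CX-5461, beside 0.01 and 0.04 over all genes. In KG-1 it was -0.08 and -0.07, beside 0.00 and 0.00.

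**Figure D3:**
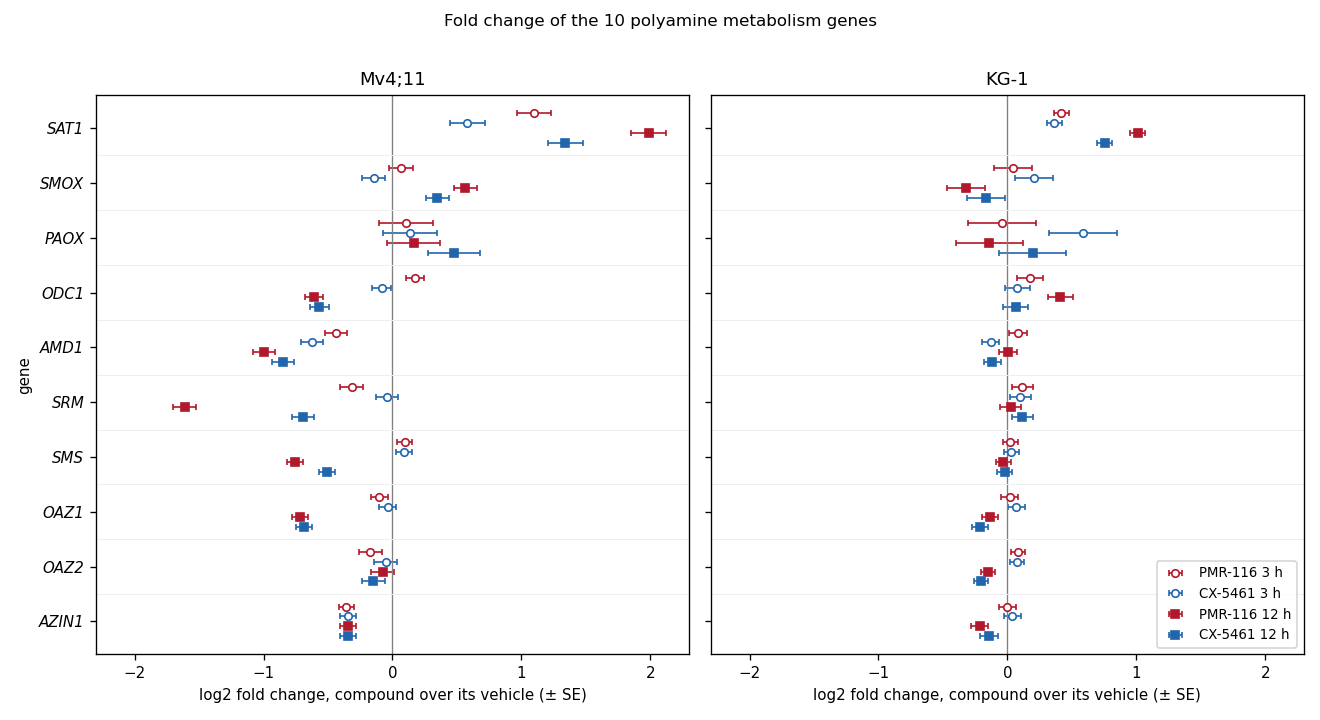
Log2 fold change (± SE) of each of the 10 genes, compound over its own vehicle, in Mv4;11 (left) and KG-1 (right), with open circles for 3 h and filled squares for 12 h. In Mv4;11 at 12 h, SAT1 and SMOX lie right of 0 and ODC1, AMD1, SRM, SMS, OAZ1 and AZIN1 left of it, and in KG-1 SAT1 alone lies beyond 0.6.

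AMD1, which makes the decarboxylated S-adenosylmethionine used by both synthases, was lower with either compound at both times in Mv4;11. It had 128, 142 and 117 CPM with PMR-116 at 3 h, against 174, 179 and 172 CPM with its vehicle. With CX-5461 at 3 h it had 112, 129 and 117 CPM, against 177, 198 and 178 CPM. The groups were apart, at -0.44 ± 0.08 and -0.62 ± 0.08. At 12 h it had 70.7, 63.7 and 62.5 CPM with PMR-116, against 145, 119 and 129 CPM, and 85.5, 73.3 and 77 CPM with CX-5461, against 149, 147 and 129 CPM. Those are -1.0 ± 0.09 and -0.85 ± 0.08, with no overlap. In KG-1, all 32 libraries had 73.1 to 119 CPM, and the log2 fold changes lay between -0.13 and 0.08 with overlapping groups.

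SRM, the spermidine synthase, had the most negative fold change of the 10 genes with PMR-116 at 12 h in Mv4;11, while AMD1 was the lower of the 2 in the other 3 comparisons of that line. In Mv4;11 it had 51.5, 41.6 and 52.5 CPM with PMR-116 at 12 h, against 156, 152 and 138 CPM with its vehicle, or 0.33 times the vehicle level (-1.61 ± 0.09). CX-5461 at 12 h gave 96.6, 89.1 and 80.4 CPM, against 143, 152 and 136 CPM (-0.69 ± 0.09). PMR-116 and CX-5461 libraries did not overlap each other at that time. At 3 h it had 144, 121 and 134 CPM with PMR-116, against 154, 173 and 169 CPM (-0.32 ± 0.09), and 133, 154 and 148 CPM with CX-5461, against 140.3, 157 and 150.1 CPM (-0.04 ± 0.09). The 3 h call with PMR-116 was lost without PMR-116 replicate 2, where the value was -0.25. In KG-1, SRM libraries had 177 to 293 CPM and log2 fold changes of 0.03 to 0.12.

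SMS, which turns spermidine into spermine, was lower in Mv4;11 at 12 h. It had 56, 50 and 55.8 CPM with PMR-116 at 12 h, against 93.4, 94.5 and 85.6 CPM with its vehicle (-0.76 ± 0.06). With CX-5461 it had 67.9, 66 and 61.8 CPM, against 95.6, 90.6 and 91.9 CPM (-0.51 ± 0.06), and no groups overlapped. At 3 h the changes were 0.09 ± 0.06 and 0.09 ± 0.06, with overlap. KG-1 libraries had 163 to 209.8 CPM, and its 4 log2 fold changes lay between -0.03 and 0.03.

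**Figure D4:**
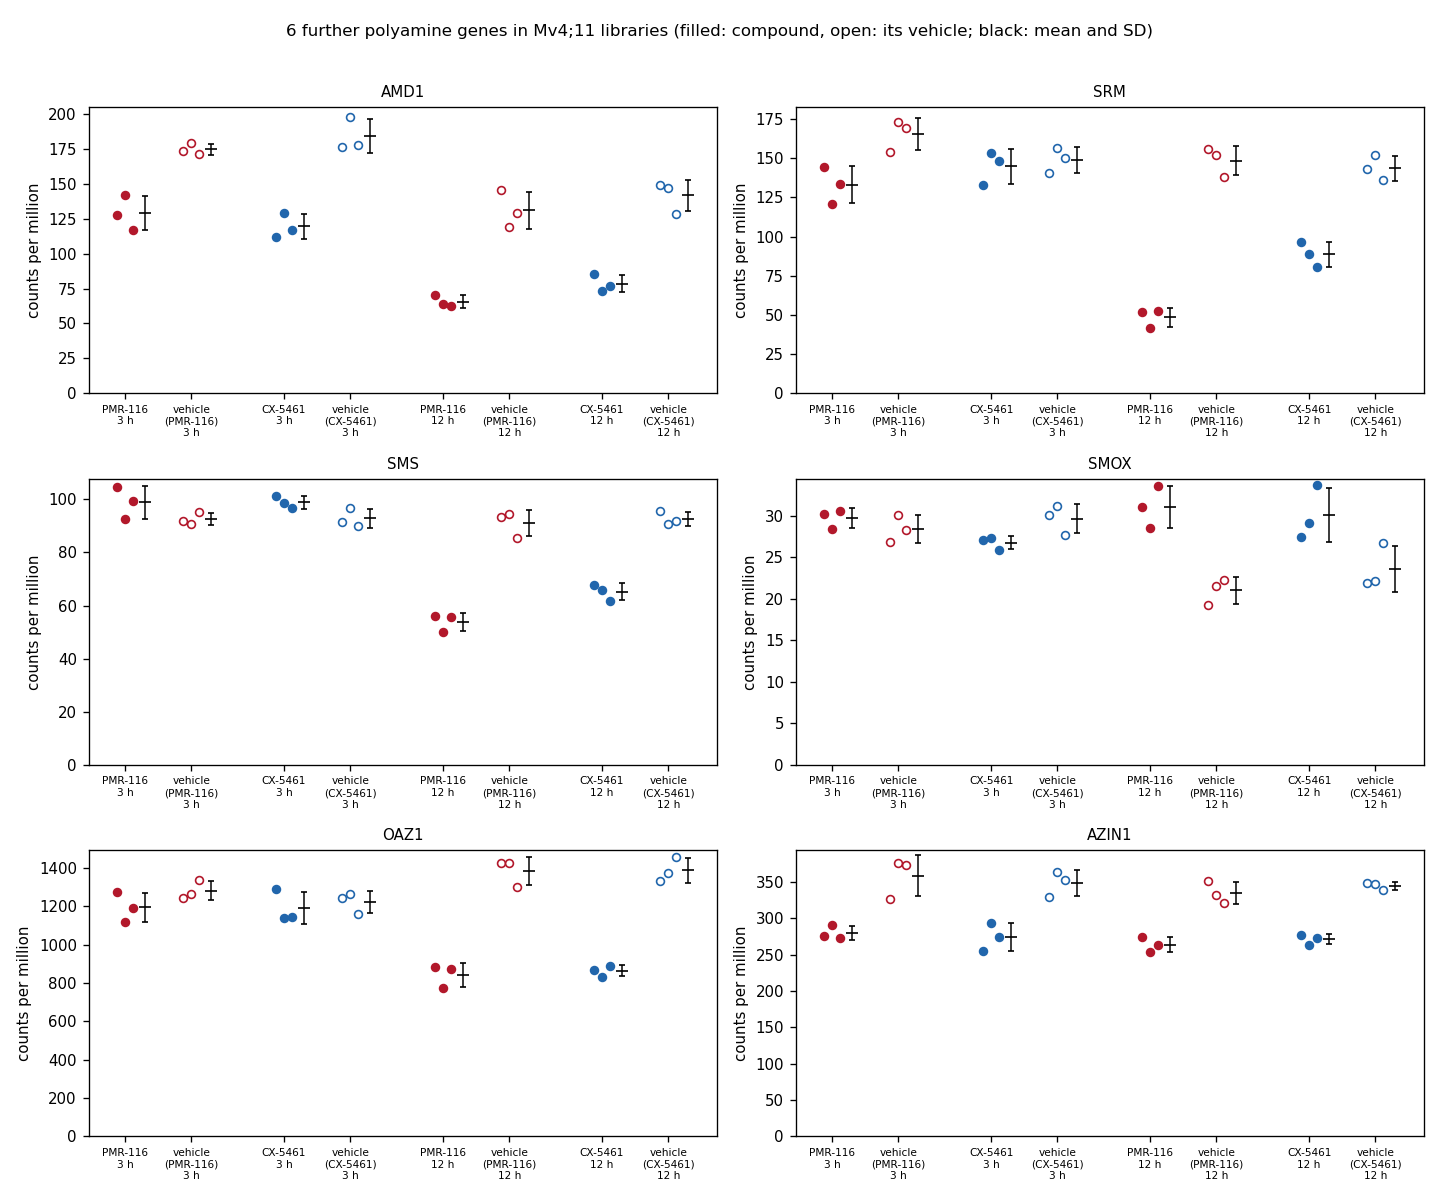
CPM of AMD1, SRM, SMS, SMOX, OAZ1 and AZIN1 in each Mv4;11 library, with compound groups filled, vehicle groups open, and the group mean with SD in black. At 12 h the AMD1, SRM, SMS, OAZ1 and AZIN1 compound libraries all lie below their vehicle libraries and the SMOX compound libraries above them. PAOX and OAZ2, not called against vehicle in this line, are not drawn. The share of all genes whose groups lie apart was not counted, so nothing is read from the number of genes apart.

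Of the oxidases, SMOX, which oxidises spermine back to spermidine, was higher in Mv4;11 at 12 h. It had 31.1, 28.5 and 33.6 CPM with PMR-116 at 12 h, against 19.2, 21.5 and 22.3 CPM with its vehicle (0.57 ± 0.09). With CX-5461 it had 27.4, 29.1 and 33.7 CPM, against 21.9, 22.2 and 26.8 CPM (0.35 ± 0.09), and the call was lost with 1 library left out. The vehicle level of SMOX was itself lower at 12 h than at 3 h, and the 12 h compound libraries spanned 27.4 to 33.7 CPM, beside 26.9 to 31.1 CPM in the 3 h vehicle libraries. At 3 h the changes were 0.07 ± 0.09 and -0.15 ± 0.09. In KG-1, SMOX had 6.59 to 13.7 CPM and the sign at 12 h was the other way, -0.32 ± 0.15 with PMR-116 and -0.17 ± 0.15 with CX-5461, with overlapping groups. The PMR-116 value was lower in 4 of 4 same-numbered pairs and passed with the replicate number as a block.

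PAOX, which oxidises the acetylated polyamines that SAT1 makes, was at 1.52 to 4.53 CPM in Mv4;11 and 0.813 to 3.48 CPM in KG-1, from 54 to 222 counts per library. Its highest changes were with CX-5461, 0.48 ± 0.20 at 12 h in Mv4;11 (2.80, 4.53 and 3.64 CPM, against 2.53, 2.62 and 2.69 CPM) and 0.58 ± 0.26 at 3 h in KG-1 (2.24, 2.06, 1.86 and 2.00 CPM, against 1.17, 1.5, 1.36 and 1.43 CPM). Neither passed the threshold, though neither pair of groups overlapped. In KG-1 the 3 h vehicle for PMR-116 had 1.48 to 2.46 CPM, a range that takes in the 3 h CX-5461 libraries. On the log2 scale it was 0.39 above the 3 h vehicle for CX-5461. The Mv4;11 value passed with library totals and without CX-5461 replicate 1, and was 0.28 without CX-5461 replicate 2.

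OAZ1, the antizyme that binds ODC1 protein and inhibits it, is made only when ribosomes shift reading frame at the end of a short first open reading frame. That site is shown because the transcript count says nothing of whether the shift took place. The 27 bases around it in the annotated transcript (GENCODE 29, chromosome 19) have the stop codon of the first frame in capitals, its first base being base 445 of the transcript.
OAZ1: cggtggtgctccTGAtgcccctcaccc
In Mv4;11, OAZ1 had 881, 772 and 871 CPM with PMR-116 at 12 h, against 1427, 1426 and 1301 CPM with its vehicle (-0.72 ± 0.06). With CX-5461 it had 869.5, 832 and 888 CPM, against 1329.7, 1375 and 1457 CPM (-0.68 ± 0.06), and neither pair overlapped. At 3 h the values were -0.10 ± 0.06 and -0.04 ± 0.06, with overlap. In KG-1 at 12 h, PMR-116 libraries had 1051, 990.3, 830.3 and 968 CPM, against 1120.3, 1058, 993 and 1044 CPM (-0.13 ± 0.06). CX-5461 libraries had 962, 868, 854 and 864 CPM, against 1153, 1022, 980.2 and 955 CPM (-0.21 ± 0.06). Both were lower in 4 of 4 same-numbered pairs. Neither passed, and both did with the replicate number as a block, the CX-5461 value also in DESeq2 and with library totals. Of the 11 OAZ1 transcripts annotated in GENCODE 29, 3 are protein-coding, and the gene count joins them.

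OAZ2, a second antizyme, showed no call in Mv4;11, where libraries had 29.2 to 40.2 CPM and the log2 fold changes lay between -0.17 and -0.05. In KG-1 at 12 h it had 53.9, 55.4, 47.7 and 56 CPM with PMR-116, against 58, 63.6, 55.8 and 58.5 CPM (-0.15 ± 0.05), with overlap. That value passed with the block, in DESeq2 and with library totals. With CX-5461 it had 49, 49.4, 45.6 and 47.7 CPM, against 58.2, 54.8, 56 and 51.7 CPM (-0.20 ± 0.05), with no overlap. That call was lost in 7 of 8 fits with 1 library left out, with no filter on low counts, and in a fit of its 2 groups alone. It stood with the replicate number as a block, in DESeq2 and with library totals, and OAZ2 was lower in 4 of 4 same-numbered pairs.

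AZIN1, the antizyme inhibitor that frees ODC1 from antizyme, had nearly the same value in all 4 Mv4;11 comparisons. It had 276, 291 and 273 CPM with PMR-116 at 3 h, against 326, 376 and 374 CPM with its vehicle (-0.36 ± 0.06). With CX-5461 at 3 h it had 255, 293 and 274 CPM, against 329.6, 364 and 353 CPM (-0.35 ± 0.06). At 12 h it had 274, 254 and 263 CPM with PMR-116, against 352, 333 and 322 CPM (-0.35 ± 0.06), and 278, 264 and 273 CPM with CX-5461, against 349, 347 and 339 CPM (-0.34 ± 0.06). Compound and vehicle libraries were apart each time. In KG-1 at 12 h it had 228, 251, 243 and 224 CPM with PMR-116, against 277, 294, 271 and 257 CPM (-0.22 ± 0.07). That call was lost in 6 of 8 fits with 1 library left out, with no filter on low counts, and in a fit of its 2 groups alone. It stood with the replicate number as a block, in DESeq2 and with library totals, and AZIN1 was lower in 4 of 4 same-numbered pairs. The CX-5461 value at 12 h was -0.14 ± 0.07, lower in 4 of 4 pairs, and passed with the block.

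The 2 compounds, given at the same dose, were also set against each other through their effects, as a description. In Mv4;11 at 12 h the effect of PMR-116 minus that of CX-5461 was 0.65 ± 0.19 on the log2 scale for SAT1 and -0.92 ± 0.12 for SRM. For SMS it was -0.25 ± 0.09, and for ODC1, AMD1, OAZ1 and AZIN1 it was -0.04 ± 0.10, -0.15 ± 0.12, -0.03 ± 0.09 and 0.00 ± 0.09. At 3 h the difference was 0.52 ± 0.19 for SAT1, 0.26 ± 0.10 for ODC1 and -0.27 ± 0.12 for SRM. In KG-1 at 12 h it was 0.26 ± 0.08 for SAT1 and 0.35 ± 0.14 for ODC1, and at 3 h 0.05 ± 0.08 and 0.10 ± 0.14. Between the times, the SAT1 effect of PMR-116 at 12 h minus that at 3 h was 0.89 ± 0.19 in Mv4;11 and 0.59 ± 0.08 in KG-1. For CX-5461 the SAT1 difference was 0.76 ± 0.19 in Mv4;11 and 0.39 ± 0.08 in KG-1. The ODC1 difference was -0.78 ± 0.10 in Mv4;11 and 0.23 ± 0.14 in KG-1 for PMR-116. With CX-5461 it was -0.48 ± 0.10 in Mv4;11 and -0.01 ± 0.14 in KG-1.

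Time in culture without compound was tested between vehicle libraries at 12 h and at 3 h. The choice of the genes did not rest on this contrast, but the same vehicle libraries are the references of the compound contrasts known beforehand. Its p-values are therefore not independent of that choice. In KG-1, where 31.6% of all genes tested were called in either direction, 2 of the 10 genes were higher at 12 h and 5 lower. ODC1 had 265, 299 and 364 CPM at 12 h (lowest, median and highest of 8 libraries), against 378, 396 and 432 CPM at 3 h. The ranges did not overlap, and ODC1 fell by 0.39 ± 0.07 on the log2 scale (edgeR adjusted p = 7.78e-05). AMD1 (-0.26 ± 0.05, edgeR adjusted p = 8.99e-05), SRM (-0.26 ± 0.06, edgeR adjusted p = 0.0011) and OAZ2 (-0.19 ± 0.04, edgeR adjusted p = 0.000365) fell too. SMOX rose, with 8.39, 10 and 13.7 CPM at 12 h, against 6.59, 7.34 and 9.88 CPM at 3 h (0.45 ± 0.11, edgeR adjusted p = 0.00138). SAT1 (0.12 ± 0.04, edgeR adjusted p = 0.0347) and OAZ1 (-0.12 ± 0.04, edgeR adjusted p = 0.0383) passed, but both calls were lost with 1 library left out, in 7 and 11 of 16 fits. Both were also lost with no filter on low counts, and stood with the replicate number as a block, in DESeq2 and with library totals. SMS (-0.10 ± 0.04, edgeR adjusted p = 0.073) passed with the replicate number as a block and in DESeq2.

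In Mv4;11, where 12.9% of all genes tested were called, 1 of the 10 genes was higher at 12 h and 2 lower. AMD1 had 119, 137 and 149 CPM at 12 h (lowest, median and highest of 6 libraries), against 172, 177 and 198 CPM at 3 h, with no overlap (-0.40 ± 0.06, edgeR adjusted p = 0.000181). SMOX had 19.2, 22 and 26.8 CPM at 12 h, against 26.9, 29.1 and 31.1 CPM at 3 h, also with no overlap (-0.38 ± 0.07, edgeR adjusted p = 0.000606). SMOX thus moved in opposite directions with time in the 2 lines, a difference that was not tested. OAZ1 rose by 0.15 ± 0.04 (edgeR adjusted p = 0.0313), a call lost in 7 of 12 fits with 1 library left out. ODC1 (0.07 ± 0.05, edgeR adjusted p = 0.388) and SAT1 (-0.20 ± 0.10, edgeR adjusted p = 0.205) did not pass.

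The vehicle libraries of PMR-116 and of CX-5461 were compared as a check of how far equal groups differ. None of the 10 genes was called in either line at either time by edgeR's quasi-likelihood test, none had an unadjusted p under 0.05, and 0.0% of all genes tested were called in each of the 4 comparisons. Over all genes, 762 and 858 had an unadjusted p under 0.05 in the 3 h and the 12 h comparison of Mv4;11, against 838 and 479 in KG-1. DESeq2 called 1 and 0 genes in Mv4;11 and 2 and 1 in KG-1. SAT1 differed by -0.03 ± 0.14 at 3 h and -0.09 ± 0.14 at 12 h in Mv4;11, vehicle for PMR-116 over vehicle for CX-5461, and ODC1 by -0.02 ± 0.07 and -0.03 ± 0.07. In KG-1 SAT1 differed by 0.03 ± 0.06 and 0.01 ± 0.06, and ODC1 by -0.04 ± 0.10 and 0.01 ± 0.10.

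Beyond these genes, 30 others tied to the pathway by known role were taken as a list, of which 25 were tested in each line: suppliers of ornithine, putrescine and S-adenosylmethionine, methylthioadenosine salvage, paralogues, transporters, and the hypusine group that uses spermidine to modify the translation factor EIF5A. In Mv4;11 the list had 4 genes called higher and 14 lower with PMR-116 at 12 h (20.7% and 22.5% of all genes), and 2 higher and 12 lower with CX-5461 (14.8% and 16.5%). With library totals these were 5 and 10 with PMR-116 (6275 and 3203 over all genes), and 3 and 11 with CX-5461 (4086 and 2591). With no filter on low counts they were 5 and 10 with PMR-116 (4997 and 3841), and 4 and 9 with CX-5461 (3563 and 2733). At 3 h there were 2 higher and 4 lower with PMR-116 (11.0% and 13.1% of all genes), and 0 higher and 3 lower with CX-5461 (5.05% and 6.61%). With library totals the counts with CX-5461 at 3 h were 2 higher and 3 lower, and without replicate 1 of its 3 h vehicle both were 0. Since this list too was drawn up with earlier results known, and the genes named from it were taken from those called, their compound values are a description. The median log2 fold change of the list at 12 h was -0.25 with PMR-116 and -0.24 with CX-5461, beside 0.01 and 0.04 over all genes. In KG-1, 1 gene was lower with PMR-116 at 12 h, DHPS, which starts hypusine formation (-0.21 ± 0.05), and 0 were called in the other 3 comparisons. There, 4, 3 and 1 list genes had an unadjusted p under 0.05 with PMR-116 at 3 h, CX-5461 at 3 h and CX-5461 at 12 h, and DESeq2 called 1, 0 and 0. With the replicate number as a block, 4, 1, 6 and 0 list genes were called in KG-1 with PMR-116 at 3 h, CX-5461 at 3 h, PMR-116 at 12 h and CX-5461 at 12 h. Over all 18618 genes that fit called 1370 higher and 1229 lower, 1033 and 700, 1649 and 1549, and 757 and 556 in that order.

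The list genes called higher with PMR-116 at 12 h included AZIN2, SAT2 and OAZ3. SAT2, a paralogue of SAT1, was at 0.58 ± 0.12, and OAZ3, an antizyme best known from testis, at 0.81 ± 0.27. The call of OAZ3 was lost in 4 fits with 1 library left out, among them the one without the vehicle library that stood apart, where OAZ3 was at 0.70. Without that library OAT, which links ornithine to proline and glutamate, was called lower (-0.28). AZIN2, a paralogue of AZIN1 that also binds antizyme, was higher in Mv4;11. It had 12, 15.4 and 15.2 CPM with PMR-116 at 12 h, against 8.24, 5.93 and 5.24 CPM with its vehicle (1.13 ± 0.21). With CX-5461 at 12 h it had 7.80, 11.5 and 9.41 CPM, against 2.71, 4.02 and 4.01 CPM (1.41 ± 0.22). AZIN1 and AZIN2 thus differed from vehicle in opposite directions, and no groups overlapped. Between the 2 sets of 12 h vehicle libraries, AZIN2 was at 0.85 ± 0.22 (vehicle for PMR-116 over vehicle for CX-5461, edgeR adjusted p = 0.768), a difference that was called with no filter on low counts. PMR-116 at 3 h gave 8.84, 7.91 and 9.43 CPM, against 3.24, 5.85 and 3.30 CPM (1.09 ± 0.22). With CX-5461 at 3 h it was at 0.65 ± 0.22 and not called, though DESeq2 called it, as did the fit with no filter on low counts. In KG-1 AZIN2 was at 0.0543 to 0.906 CPM.

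EIF5A, whose hypusine is made from spermidine, was lower in Mv4;11 at 12 h. It had 293, 245 and 276 CPM with PMR-116 at 12 h, against 623, 609.8 and 557 CPM with its vehicle (-1.14 ± 0.07). With CX-5461 it had 441, 392 and 386 CPM, against 586, 601 and 572 CPM (-0.53 ± 0.07). The PMR-116 effect minus the CX-5461 effect was -0.61 ± 0.09. The hypusine enzymes DHPS (-0.44 ± 0.05) and DOHH (-0.53 ± 0.12) were called lower with PMR-116 at 12 h as well, beside 22.5% of all genes. EIF5A2, the remaining gene of the hypusine group, was not called at 12 h. It was called higher with PMR-116 at 3 h (0.73), a call lost in 4 fits with 1 library left out. In KG-1 EIF5A was at 0.00 ± 0.08 with PMR-116 and 0.02 ± 0.08 with CX-5461 at 12 h, and the groups overlapped.

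Among the suppliers of substrate, ALDH18A1, which makes the glutamate semialdehyde that feeds proline and ornithine, had 71.4, 57.5 and 73.9 CPM with PMR-116 at 12 h, against 149.9, 145 and 128 CPM with its vehicle in Mv4;11 (-1.06 ± 0.08). With CX-5461 it had 106, 97.8 and 104 CPM, against 152, 151 and 129.7 CPM (-0.49 ± 0.08). AGMAT, annotated as agmatinase, which makes putrescine from agmatine rather than from ornithine, had 4.94, 6.54 and 5.21 CPM with PMR-116, against 11, 12.3 and 10.8 CPM (-1.03 ± 0.12). For both, the PMR-116 effect was below the CX-5461 effect, with differences of -0.57 ± 0.11 and -0.62 ± 0.17. In KG-1 their changes lay between -0.03 and 0.09. Of the 5 genes that salvage methylthioadenosine, the by-product of both synthases, all 5 were called lower with PMR-116 at 12 h in Mv4;11 (beside 22.5% of all genes), from -0.20 ± 0.07 for APIP to -0.84 ± 0.07 for ENOPH1. With CX-5461 at 12 h 4 of the 5 were called lower (beside 16.5% of all genes), and MRI1 was not (-0.09 ± 0.06). With PMR-116, the calls of APIP and MRI1 were lost with library totals and with no filter on low counts, and that of APIP also in 3 fits with 1 library left out. With CX-5461, the APIP call was lost with library totals, with no filter and in a fit of its groups alone. It was also lost in 3 fits with 1 library left out.

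**Figure D5:**
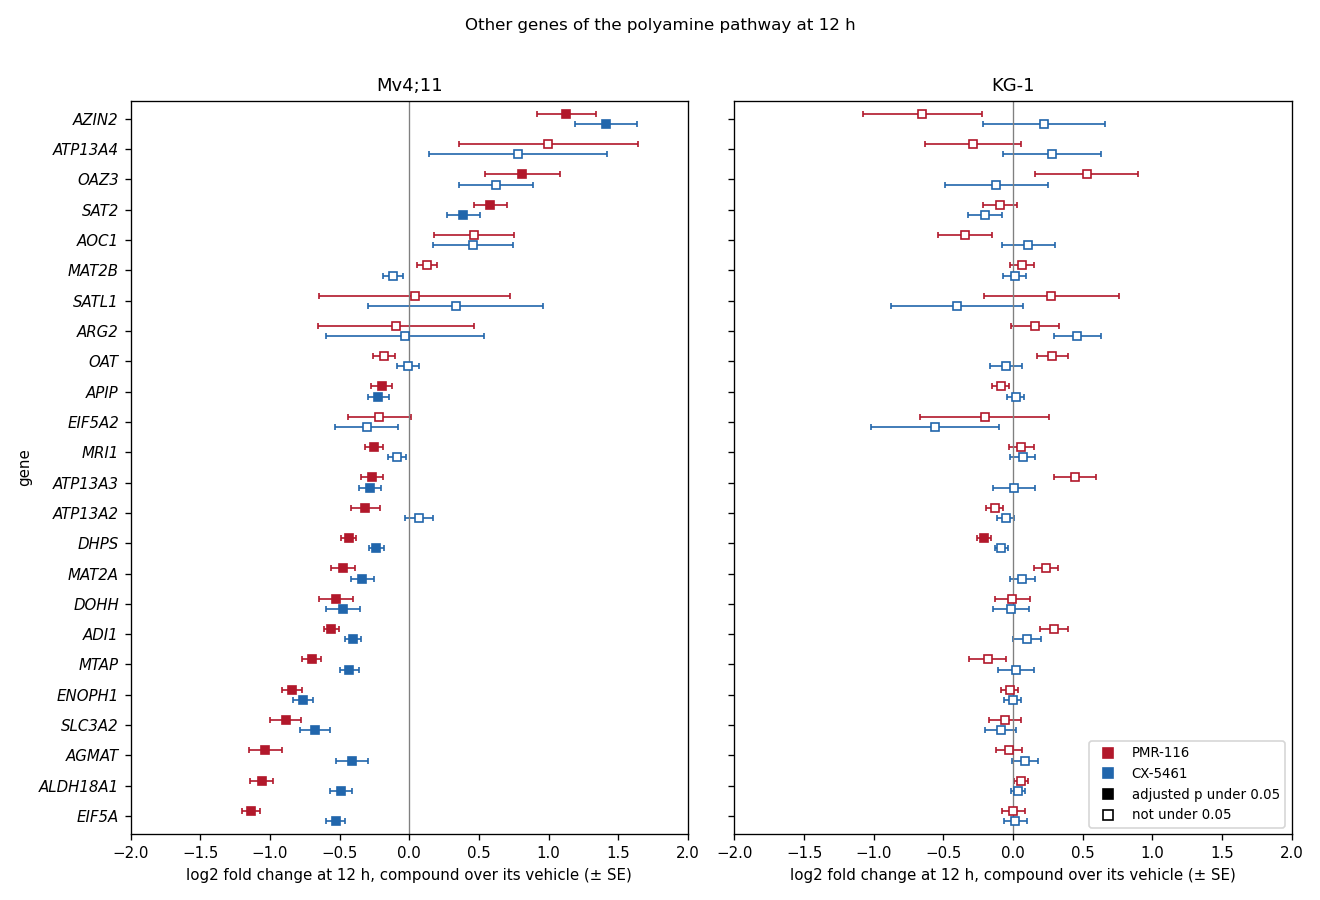
Log2 fold change at 12 h (± SE) of 24 of the 25 other pathway genes tested in Mv4;11, with PMR-116 in red and CX-5461 in blue, in Mv4;11 (left) and KG-1 (right), ordered by the PMR-116 value in Mv4;11. Filled squares passed an adjusted p of 0.05. EIF5A lies lowest in Mv4;11 at -1.14, and 1 filled square, DHPS at -0.21, stands in KG-1.

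At 12 h in Mv4;11 the scaling of libraries mattered to small changes. With library totals in place of TMM, the median of all genes with PMR-116 was 0.18 instead of 0.01, and 6275 genes were called higher and 3203 lower instead of 4241 and 4618. With CX-5461 the median was 0.12 instead of 0.04, and 4086 were called higher and 2591 lower instead of 3042 and 3388. Under it the PMR-116 change at 12 h was 2.16 for SAT1 and -0.44 for ODC1, and each of the 8 genes called there kept its direction and its call. AZIN1 moved most in proportion, to -0.17. OAZ2 with PMR-116, not called either way, turned to 0.10.

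As a description of pattern, log2(CPM + 1) of SAT1 and of ODC1 was correlated with that of 9286 genes over the 24 Mv4;11 libraries, which share their 8 groups, with the value over the 32 KG-1 libraries beside it. Closest to SAT1 were DUSP10 (Pearson r of 0.96, and 0.63 in KG-1), WDR26 (0.96 and 0.80), GTF2IP4 (0.96 and 0.35) and UBALD2 (0.96 and 0.64). Most opposite were SLC43A3 (-0.98, and 0.75 in KG-1), ACAD9 (-0.97 and -0.41), THAP7 (-0.97 and -0.28) and LSM2 (-0.97 and -0.70). SLC43A3 had opposite signs in the 2 lines, and GTF2IP4 is a pseudogene whose reads may be shared with near-identical copies. Closest to ODC1 were MTBP (0.95, and -0.42 in KG-1), SSX2IP (0.93 and 0.13), BANF1 (0.93 and 0.76) and TMX1 (0.93 and 0.16). Most opposite were GAS6-AS1 (-0.95 and -0.32), ITGB7 (-0.95 and 0.59), ZNF385A (-0.94 and 0.73) and MS4A4E (-0.94 and -0.34). Among the 10 genes, ODC1 was closest to SMS (0.91 and 0.80), and SAT1 with ODC1 gave -0.68 in Mv4;11 and 0.07 in KG-1. ODC1 with MYC gave 0.08 and -0.01.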

How the data were processed

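RNA was sequenced from Mv4;11 (24 libraries) and KG-1 (32 libraries) with a stranded, poly(A)-selecting kit (Illumina Stranded mRNA Prep), per the labels' protocols. The deposited tables hold estimated counts per gene symbol, 1 table for each line. Salmon 1.5.2, DESeq2 and GRCh38.p13 stand in the submitters' processing notes without roles. The counting's strand setting is not given in the sources used here. Trimming is mentioned in the KG-1 table's name. The Mv4;11 table has 24 further columns that match no sample, and they were not used.

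Counts were rounded and tested with the quasi-likelihood test of edgeR 4.0.16 (R 4.3.3). Genes passed filterByExpr (minimum count 10, minimum total 15), libraries were scaled by TMM, and each line's 8 groups entered 1 fit. P-values were adjusted by Benjamini-Hochberg over all genes of a line, and called means an adjusted p under 0.05. CPM use the scaled library size. The script was tested on simulated counts. Every pair of replicates differed by more than sampling noise (chi-square over its degrees of freedom at least 7.03).

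The 10 genes were the members listed for the pathway, all of them named. The other pathway genes named were those called with an absolute log2 fold change of at least 1 and a mean of at least 5 CPM in the higher group of any compound comparison. Others named beside a count were chosen after their values were seen. The values of 1 gene of the list are not reported here, though the counts include it. Likeness was ranked by Pearson correlation of log2(CPM + 1) over genes with a mean of at least 10 CPM. Members and lists were chosen with earlier results of these data known. Counting error and depth limit PAOX most.

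Alternatives were library totals, DESeq2 1.42.0, no filter, a fit of the contrast's groups alone, the replicate number as a block, and each library left out in turn. In KG-1 same-numbered libraries deviated together, with a correlation of deviations over 0.1 in 16 of 16 same-numbered pairs of a compound and a vehicle library (0.180 to 0.703, median 0.378), so the numbers pair the samples there. In Mv4;11 this held in 10 of 12 pairs (0.0625 to 0.494). The pairs below 0.1 were both of PMR-116 at 12 h, where the replicate 1 pair was at 0.258. The lowest pair of the other 3 Mv4;11 comparisons was at 0.115, with CX-5461 at 12 h. By that cut the numbers were taken to pair the samples in those 3 comparisons. Errors, calls and adjusted p-values are those of the fit without the block, except where the block is named.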

Additional observations from a re-analysis of the deposited data

Results flagged for a closer look

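In KG-1, 5 of the 80 combinations of a gene and a group of 4 libraries had 1 library far from the others, by Dixon's criterion at its 95% critical value. Chance gives such a gap in about 1 in 20 groups. ODC1 with CX-5461 at 3 h had 467 CPM in replicate 1, where the other 3 libraries had 413 to 420.0 CPM. OAZ1 with CX-5461 at 12 h had 962 CPM in replicate 1, where the others had 854 to 868 CPM. SMOX was highest in replicate 2 in the other 3 cases: 10.8 CPM with CX-5461 at 3 h (others 7.42 to 7.89 CPM), 10.2 CPM with PMR-116 at 12 h (others 7.40 to 7.72 CPM) and 9.88 CPM in the vehicle for PMR-116 at 3 h (others 7.13 to 7.51 CPM). The same replicate numbers lead elsewhere in KG-1. Replicate 1 had the highest ODC1, SRM and OAZ1 in 8 of 8 groups, and replicate 2 the highest SMOX in 7 of 8, in compound and vehicle groups alike.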

How the results depend on the processing

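The 2158 values recomputed under an alternative included counts of called genes and fold changes that were not called. No called fold change changed sign. Some uncalled ones did, such as OAZ2 with PMR-116 at 12 h in Mv4;11 (-0.08, and 0.10 with library totals). With library totals, ODC1 in Mv4;11 at 12 h was at -0.44 with PMR-116 and -0.48 with CX-5461, SAT1 with PMR-116 at 2.16, and the other pathway genes called were 5 (2 higher, 3 lower) with CX-5461 at 3 h in Mv4;11 and 2 with PMR-116 at 12 h in KG-1. With no filter on low counts, ODC1 was at -0.53 and -0.51 at 12 h in Mv4;11, 1 of the 10 genes was called in KG-1 with CX-5461 at 12 h, and 126 and 174 genes differed between the vehicles of the compounds in Mv4;11 at 3 h and 12 h, none of them among the 10 but AZIN2 at 12 h and EIF5A2 at 3 h among them. In a fit of the contrast's groups alone, the KG-1 counts were 1 of the 10 genes with CX-5461 at 12 h, and 1 other pathway gene with CX-5461 at 3 h and 0 with PMR-116 at 12 h. DESeq2 called 1 and 3 other pathway genes in KG-1 with PMR-116 at 3 h and 12 h. The replicate block, which follows the pairing of KG-1 libraries, gave 2, 6 and 4 of the 10 genes with PMR-116 at 3 h, PMR-116 at 12 h and CX-5461 at 12 h, and 4, 1 and 6 other pathway genes with PMR-116 at 3 h, CX-5461 at 3 h and PMR-116 at 12 h. In Mv4;11 the block added ODC1 with PMR-116 at 3 h and PAOX between the vehicle times. With 1 library left out, other pathway genes called ranged from 0 to 3 with CX-5461 at 3 h in Mv4;11, 0 to 1 and 1 to 2 with PMR-116 at 3 h and 12 h in KG-1, the 10 genes called from 1 to 3 with CX-5461 at 12 h in KG-1, and ODC1 with PMR-116 at 12 h in Mv4;11 from -0.67 to -0.58.

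Over all genes in KG-1, higher and lower calls with CX-5461 at 12 h were 254 and 219 in the joint fit, 42 and 29 in the fit of its groups alone, 164 and 104 with no filter, 430 and 373 in DESeq2 and 757 and 556 with the block. With PMR-116 at 12 h they were 416 and 495 in its groups alone and 1649 and 1549 with the block. At 3 h the block gave 1370 and 1229 with PMR-116 and 1033 and 700 with CX-5461, and the groups alone gave 167 and 165 with CX-5461. The causes were not tested. Depth limits PAOX, with 54 to 222 counts in KG-1 and 57 to 144 in Mv4;11.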

Other observations

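In KG-1, 7 of the 25 other pathway genes were lower at 12 h than at 3 h with vehicle and 0 higher, beside 31.6% of all genes called in either direction, so nothing is read from the count. EIF5A was at -0.30 ± 0.06 (edgeR adjusted p = 0.0002), ALDH18A1 at -0.15 ± 0.04 (edgeR adjusted p = 0.00208) and AGMAT at -0.22 ± 0.07 (edgeR adjusted p = 0.00986). The calls of APIP, MAT2A and DOHH were lost in 11, 9 and 8 of 16 fits with 1 library left out. In Mv4;11, 3 of 25 were lower and 0 higher, beside 12.9% of all genes. They were MAT2A, which makes S-adenosylmethionine, the polyamine transporter ATP13A3, and AOC1, an extracellular amine oxidase whose call was lost in 6 fits with 1 library left out and in a fit of its groups alone.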
